A study of Homo sapiens with 51 samples.

Results

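The comparison set 3 libraries of HMLE cells taken at day 4 after DMSO against 3 libraries taken at day 2, which are 6 of the 51 libraries of the series. The libraries were chosen by their labels alone, and all 21700 genes listed for them in the deposited table were considered. HMLE cells are human mammary epithelial cells immortalised in culture with telomerase and the SV40 large T antigen, and the labels give their genotype as wild type. DMSO is the solvent of chaetocin, an inhibitor of the histone methyltransferases SUV39H1 and SUV39H2 that the series studies, and neither group received the inhibitor or a duplex. Day 2 cells had 48 h of DMSO. Day 4 cells had 15 h of DMSO, which was washed out, and then 48 h of recovery in fresh medium, hours that add up to less than the labelled day. Duration of DMSO, its removal, the change of medium and the day of harvest differ together between the groups and cannot be told apart. The labels do not say whether the replicates were separate cultures, so p-values measure the spread between these samples alone.

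Beside this pair stood the same pair of days in HMLE-TWIST1 cells in DMSO, which carry the transition factor TWIST1, and in HMLE cells given a scrambled duplex for 48 h (day 2) or for 48 h with a further 48 h of recovery (day 4). Each of these groups also had 3 libraries. Total RNA, depleted of ribosomal RNA, was sequenced, so levels are of RNA in a bulk sample. In such samples fewer cells of a kind and less RNA in each cell cannot be told apart.

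E2F factors drive the genes of DNA replication and the S-phase histones, and the MuvB complex with B-MYB and FOXM1 drives the genes of mitosis, while the CDK inhibitors and p53 restrain both. Stratified epithelia couple the exit from the cycle to squamous differentiation, in which keratins, cornified envelope proteins, desmosomal cadherins and proteases of the surface replace the basal program. Mammary basal cells share much of that basal program.

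Libraries held 8613882 to 14484539 reads in listed genes, with the lowest total in day 4 replicate 1. The first principal component took 67.7% of the variance and separated the days, with day 2 replicate 1 nearest to day 4. The nuclear RNA MALAT1 was the top gene in every library, at 4.4 to 5.79% of reads at day 2 and 7.93 to 10.6% at day 4. Levels below are CPM, each gene's reads relative to its library's total after scaling that total by a trimmed mean of log ratios. The epithelial markers CDH1, EPCAM, KRT8 and KRT18 and the basal markers KRT5, KRT14, TP63 and COL17A1 were present in all 6 libraries, at 40.5 CPM or more. The leukocyte marker PTPRC had 3 reads in all 6 libraries, the melanocyte markers MLANA and DCT had 5 and 2, and the endothelial marker KDR had 6. Other markers of these types had more reads, with CD14 at 264, CSF1R at 275, CDH5 at 41, VWF at 119 and PMEL at 518 in all 6 libraries.

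Of 16076 genes tested with limma, 3001 were higher at day 4 (18.7%) and 3036 were lower (18.9%) at a Benjamini-Hochberg adjusted p of 0.05. A change of at least 2-fold was reached by 669 of the genes called higher and 555 of those called lower. All 3 day 4 libraries lay above all 3 day 2 libraries in 4009 genes (24.9%), and below them in 4005 (24.9%). With scaling by total reads the median over all genes moved to -0.12 on the log2 scale, and the counts became 2052 higher and 4216 lower. Changes given here are relative to the trimmed mean, under which the median over all genes was 0. Counts of 1 to 3 members given below moved by at most 2 genes when single libraries of either day were left out, except where another value is given. Longer genes were called higher more often: 1400 higher and 980 lower among the 5359 longest, against 583 and 951 among the 5359 shortest, with medians of 0.06 and -0.08. The part of gene length and of MALAT1 in these counts was not tested.

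Genes of mitosis fell together. MKI67, which encodes the proliferation marker Ki-67, stood at 1370, 1430 and 1470 CPM in the day 2 libraries and at 229, 309 and 247 CPM at day 4. The groups lie far apart, and the day 4 libraries are close to each other. The log2 fold change was -2.46 (SE 0.10, limma adjusted p = 5.8e-09, n = 3 libraries per group). CCNB1, for cyclin B1, went from 188, 197 and 205 to 42.4, 57.8 and 41.1 CPM (-2.07, SE 0.12, adjusted p = 1.7e-07). CDC20, which activates the anaphase-promoting complex, went from 43.4, 51 and 58.0 to 6.79, 12.6 and 7.03 CPM (-2.55, SE 0.24). The kinesin KIFC1 (-2.44), the spindle midzone protein PRC1 (-1.88) and the microtubule-bundling protein NUSAP1 (-1.76) fell as well. All 35 mitosis genes listed were tested, and 35 were lower and 0 higher, against 18.9% lower over all genes. Their median was -2.14, from -2.80 for the kinase AURKB to -1.21 for ECT2, which starts the cleavage furrow. Summed, the list held 7960, 8350 and 8580 CPM at day 2 and 1620, 2450 and 1830 CPM at day 4. Replicate 2 was the highest of the day 4 libraries in all 35 genes.

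Promoters of this list are shown because its members moved together. RefSeq promoter sequences (build GRCh38.p14, 250 bases before to 50 after the start) matched 30 of the 35 symbols. On both strands, TTTGAA, the core of the cell cycle homology region bound by MuvB, occurred in 22 of the 30 (73.3%), against 15.4% of 27305 promoters and 9.93% of the 9658 promoters of genes tested. CCAAT, the box bound by NF-Y, occurred in 24 (80.0%), against 35.7% and 36.9%. A match is a description of letters and no evidence of binding. Of the members considered for printing, 3 are shown: those with the smallest adjusted p that hold both motifs in the printed bases. These bases run from 200 before to 30 after the start, on the gene's strand, with TTTGAA and CCAAT or their complements in capitals. MKI67 (chr10:128126394-128126623, minus strand) has each motif 2 times, and at 1 place they overlap. PRC1 (chr15:90994506-90994735, minus strand) has each 1 time. NUSAP1 (chr15:41332681-41332910, plus strand) has TTTGAA 1 time and CCAAT 2 times.
MKI67: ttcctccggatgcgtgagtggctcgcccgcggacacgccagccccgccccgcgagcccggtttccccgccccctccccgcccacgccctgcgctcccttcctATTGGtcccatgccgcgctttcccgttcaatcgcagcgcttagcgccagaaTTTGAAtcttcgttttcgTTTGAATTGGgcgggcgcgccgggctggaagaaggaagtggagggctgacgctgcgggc
PRC1: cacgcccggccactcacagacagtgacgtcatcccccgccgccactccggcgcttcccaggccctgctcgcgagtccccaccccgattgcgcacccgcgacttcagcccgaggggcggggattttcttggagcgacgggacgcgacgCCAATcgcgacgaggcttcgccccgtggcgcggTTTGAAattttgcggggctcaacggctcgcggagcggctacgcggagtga
NUSAP1: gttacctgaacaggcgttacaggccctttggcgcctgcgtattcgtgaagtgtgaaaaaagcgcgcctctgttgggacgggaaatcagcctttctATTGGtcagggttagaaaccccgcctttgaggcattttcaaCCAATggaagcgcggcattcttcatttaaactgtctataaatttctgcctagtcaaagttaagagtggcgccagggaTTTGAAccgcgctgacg

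**Figure D1:**
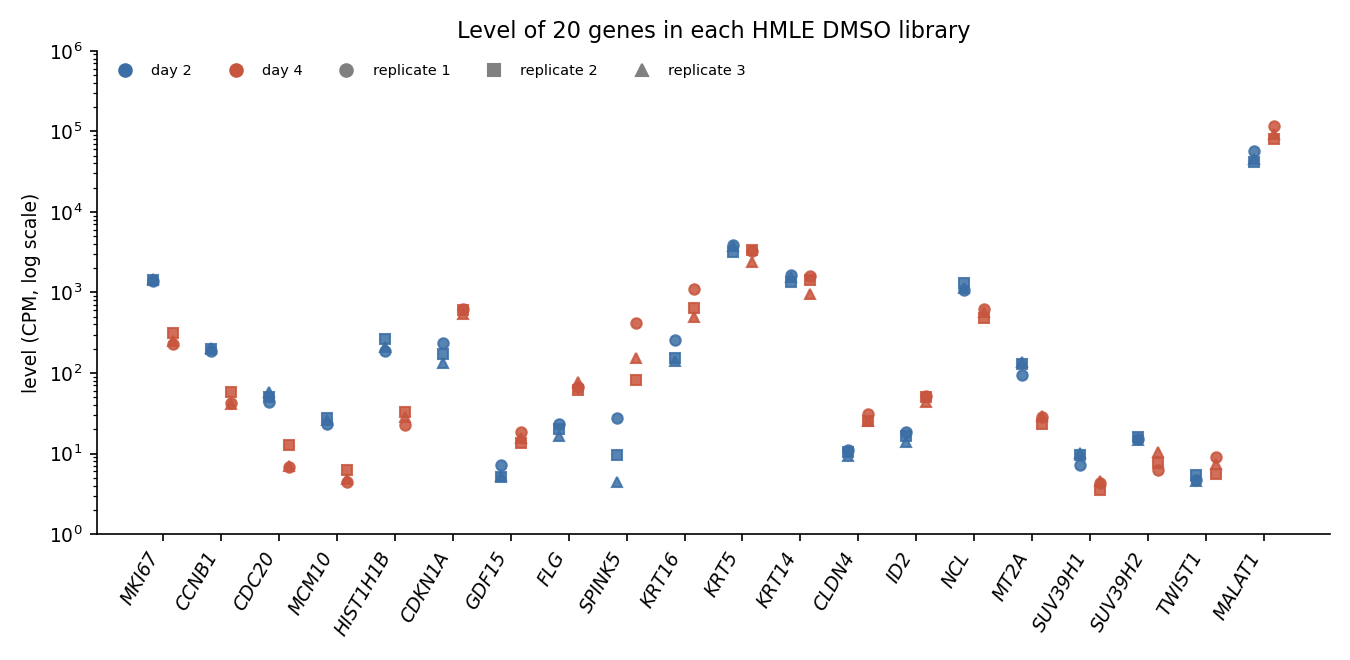
Level of 20 genes (CPM, log axis) in each HMLE DMSO library, with day 2 in blue, day 4 in red and the marker shape giving the replicate. MKI67, CCNB1, CDC20, MCM10 and HIST1H1B are lower in all 3 day 4 libraries, CDKN1A, GDF15, FLG and CLDN4 are higher in all 3, and KRT5 and KRT14 overlap.

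Genes of DNA replication fell by less. MCM10, needed to activate the replicative helicase, went from 23.0, 27.6 and 25.8 to 4.4, 6.29 and 4.79 CPM (-2.28, SE 0.15, limma adjusted p = 1.7e-07, n = 3). CDC45 (-2.10) and GINS4 (-2.09), the helicase's partners, and the clamp loader subunit RFC3 (-1.60) fell too. The nuclease EXO1, of mismatch repair, went from 43.7, 59.1 and 49.3 to 8.30, 10.1 and 8.25 CPM (-2.49). MCM3, of the helicase ring, went from 249, 255 and 226 to 132, 139 and 140 CPM (-0.83), and the clamp PCNA fell by 0.37 (SE 0.10, adjusted p = 0.00902). MCM3 and PCNA were named here after their values were seen. All 36 genes listed were tested, and 35 passed as lower against 0 as higher (median -0.73). The exception was GINS3 at -0.42 (adjusted p = 0.0608).

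The E2F site TTTNGCGC occurred in 12 of 32 promoters matched for this list (37.5%), against 1.83% of all promoters and 3.0% of the 9658 promoters of genes tested. The MCM3 promoter (chr6:52284713-52284942, minus strand, GRCh38.p14) is shown, with the site in capitals near the start. MCM3 has the smallest adjusted p of the members considered for printing that hold the site in the printed bases. Not all members of the list were considered for printing.
MCM3: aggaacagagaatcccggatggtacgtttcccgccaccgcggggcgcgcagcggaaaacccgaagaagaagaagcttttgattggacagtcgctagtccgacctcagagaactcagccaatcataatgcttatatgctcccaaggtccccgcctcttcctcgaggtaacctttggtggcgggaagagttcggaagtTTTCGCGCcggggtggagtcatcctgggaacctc

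Replication-dependent histone genes, which package new DNA, held many of the largest falls. HIST1H3B went from 40.9, 51.8 and 51.4 to 4.90, 6.06 and 5.60 CPM (log2 fold change -3.08, SE 0.13, limma adjusted p = 5.8e-09, n = 3). The linker histone gene HIST1H1B went from 190, 264 and 212 to 22.6, 33.0 and 28.1 CPM (-2.99, SE 0.16). Among the 12 largest falls by the naming rule, 8 were histone genes. The symbols HIST1H2BO, HIST1H2AH, HIST1H2AJ, HIST1H2BI, HIST1H2AI and HIST1H3C fell by 2.83 to 2.49. Near-identical copies make the share of each single histone gene uncertain. Among 63 that the table lists, 54 passed the filter on low reads, and 51 of these passed as lower against 0 as higher (median -2.16). HIST1H2AC (-0.26), HIST1H3E (-0.47) and HIST2H2BC (0.24) did not pass. The sum over the list was 2720, 3280 and 3190 CPM at day 2 and 683, 795 and 711 CPM at day 4. Libraries were made from total RNA, so histone messages without a poly(A) tail are included.

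Regulators of the cycle moved both ways. CDKN1A, for the inhibitor p21, stood at 237, 170 and 134 CPM at day 2 and 626, 613 and 538 CPM at day 4. All day 4 libraries are above the highest day 2 library, and the day 2 libraries spread more widely. The log2 fold change was 1.75 (SE 0.20, limma adjusted p = 0.000716, n = 3). CDKN2B, for p15, rose by 1.08 (SE 0.20) and CDKN1B, for p27, by 0.44 (SE 0.09), while CDKN2C, for p18, was lower at -1.24 (SE 0.14) and CDKN2D at -0.52. Among 6 CDK inhibitors tested 3 were higher and 2 lower. Of 21 genes of the G1 cyclins, E2F and RB families 10 passed as lower and 1 as higher (median -0.27). MYBL2, for the B-MYB of the mitotic complex, fell by 2.19, and the phosphatase gene CDC25A by 1.36. The repressive E2F genes E2F8 (-1.12) and E2F7 (-0.80) were lower. CCND1, for cyclin D1, did not pass (0.04, adjusted p = 0.83), and the gene that rose was CCNE1, for cyclin E1 (0.49, adjusted p = 0.0313).

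Targets of p53 rose, with 21 of 25 higher and 0 lower against 18.7% higher over all genes, and a median of 0.64. The stress cytokine GDF15 went from 7.16, 5.14 and 5.19 to 18.7, 13.5 and 15.6 CPM (1.43, SE 0.17, limma adjusted p = 2.1e-05, n = 3). SPATA18, a mediator of mitochondrial quality control, rose by 1.48, the ribonucleotide reductase subunit RRM2B by 0.97 and the stress protein SESN1 by 0.95. The death receptor gene FAS did not pass (0.07, adjusted p = 0.601). Day 2 replicate 1 was the highest of its day in 21 of the 25 target genes, against 33.3% of all genes tested. SV40 large T antigen is known to bind p53, and its RNA was not measured here.

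Squamous differentiation genes rose. FLG, for filaggrin of the cornified layer, stood at 23.3, 20.4 and 16.5 CPM at day 2 and 67.0, 60.8 and 78.1 CPM at day 4. The groups are well separated, and the log2 fold change was 1.77 (SE 0.13, limma adjusted p = 7.0e-07, n = 3). S100A9 and S100A8, which form calprotectin, went from 196, 205 and 209 to 412, 346 and 388 CPM (0.91, SE 0.08) and from 60.9, 52.5 and 62.2 to 132, 118 and 104 CPM (1.00, SE 0.10). KLK5, a protease that sheds surface cells, rose by 0.91 (SE 0.09). Of 44 genes listed 41 were in the table and all 41 were tested, with 36 higher and 0 lower, a median of 1.61, and 31 at least 2-fold higher. The sum over the list was 5130, 4490 and 4180 CPM at day 2 and 11300, 8420 and 10000 CPM at day 4. The 5 that did not pass were TGM1 (1.24, adjusted p = 0.053), SPRR2D (0.86), SERPINB3 (0.40), PPL (0.21) and SERPINB4 (-0.20). The count of 36 moved with single libraries: it was 23 of 35 tested without day 4 replicate 1 and 23 of 35 without day 4 replicate 2, with medians of 1.22 and 1.5. Without any 1 day 4 library 35 members passed the filter on low reads, against 39 to 41 without 1 day 2 library. Some members thus passed the filter only through the day 4 libraries, where they are high, and could hardly be called lower. The count of 36 and the median of 1.61 include them.

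Some squamous genes varied widely between replicates. SPINK5, a protease inhibitor of the upper epidermis, stood at 27.9, 9.49 and 4.41 CPM at day 2 and 421, 82.9 and 154 CPM at day 4 (4.03, SE 0.99, limma adjusted p = 0.0389, n = 3). Its groups do not overlap, yet each spreads widely. Its call was lost without any 1 of 5 of the 6 libraries, with adjusted p from 0.0584 to 0.119 (all but day 2 replicate 1). DSG1, for desmoglein 1, went from 4.31, 0.461 and 0.155 to 68.4, 25.6 and 19.2 CPM, and KRT1, a keratin of suprabasal layers, from 3.06, 0.33 and 0.774 to 29.0, 13.8 and 7.64 CPM. IVL, for involucrin, went from 48.1, 50.7 and 23.4 to 201, 119 and 111 CPM (1.84, adjusted p = 0.0312). KRT13, a keratin of stratified mucosa, was abundant at both days, at 1490, 1000 and 1040 and then 3070, 2350 and 3500 CPM (1.34, SE 0.19, adjusted p = 0.00121). These 4 were named after their values were seen. Day 2 replicate 1 was the highest of its day in 23 of the 41 genes and day 4 replicate 1 in 32, against 33.3% and 35.7% of all genes.

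The AP-1 site TGANTCA occurred in 13 of 33 promoters matched for this list (39.4%), against 7.76% of all promoters and 5.15% of those of genes tested. The FLG promoter (chr1:152325210-152325439, minus strand, GRCh38.p14) is shown as the member with the smallest adjusted p that holds it.
FLG: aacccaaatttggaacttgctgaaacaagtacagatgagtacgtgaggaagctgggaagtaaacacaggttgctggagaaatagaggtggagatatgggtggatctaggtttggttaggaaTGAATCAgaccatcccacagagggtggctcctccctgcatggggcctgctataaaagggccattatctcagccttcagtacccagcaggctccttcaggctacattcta

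Transcription factors of the squamous program rose too, with 10 of 12 higher and 0 lower and a median of 0.93. GRHL1, a grainyhead factor, went from 107, 90.1 and 89.6 to 216, 196 and 184 CPM (1.06, SE 0.09, limma adjusted p = 1.5e-06, n = 3). OVOL1, which restrains basal proliferation, rose by 1.25 (SE 0.11), PRDM1, for the repressor BLIMP1, by 1.48 (SE 0.14) and KLF4, a barrier factor, by 0.98 (SE 0.12). MAF, a factor of late differentiation, went from 34.1, 17.3 and 15.1 to 131, 126 and 79.5 CPM (2.39, SE 0.40, adjusted p = 0.011). ELF3 (0.15) and CEBPB (-0.11) did not pass. The count of 10 was the same with each library left out in turn. Of 11 Notch pathway genes 7 were higher and 0 lower (median 0.37), among them the target HES2 (0.73, limma adjusted p = 3.5e-05) and the receptors NOTCH3 (0.79) and NOTCH1 (0.62). HES2 did not pass in a fit of all 12 DMSO libraries (0.79, limma adjusted p = 0.075). The Notch count was 4 higher without day 2 replicate 3 and 4 without day 4 replicate 2, and 4 higher and 2 lower with total reads as the scale (median 0.24).

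**Figure D2:**
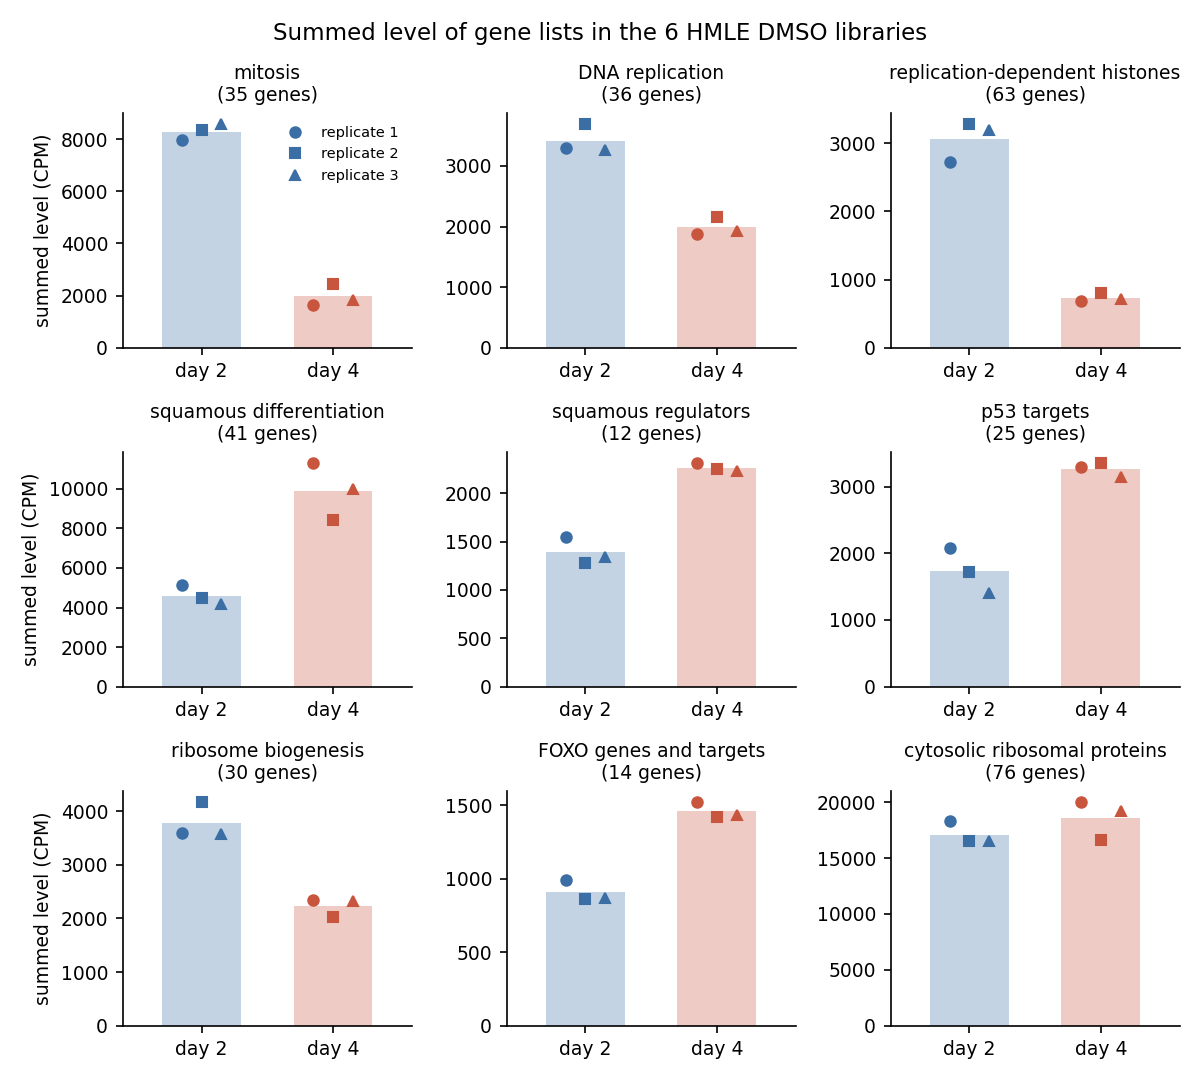
Summed level (CPM, axis from 0) of 9 gene lists in each HMLE DMSO library, with bars at the mean of 3 libraries and markers for the replicates. Mitosis, DNA replication, histone and ribosome biogenesis genes are lower in all 3 day 4 libraries, squamous genes and regulators, p53 targets and FOXO genes are higher in all 3, and ribosomal protein genes overlap.

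The main basal keratins overlapped between the days. KRT5 stood at 3880, 3140 and 3820 CPM at day 2 and 3240, 3330 and 2410 CPM at day 4, and the groups overlap (log2 fold change -0.28, SE 0.13, limma adjusted p = 0.112, n = 3). With total reads as the scale KRT5 passed as lower (-0.4, adjusted p = 0.0241). KRT14 also overlapped, at 1630, 1340 and 1540 against 1590, 1420 and 964 CPM (-0.21, adjusted p = 0.398). TP63, the master factor of basal cells, was at 0.18 (adjusted p = 0.0625). KRT15, another basal keratin, rose from 1810, 1790 and 1500 to 3860, 2700 and 2970 CPM (0.89, SE 0.13, adjusted p = 0.000227). KRT16, a keratin of activated epidermis, went from 257, 154 and 140 to 1110, 639 and 502 CPM (2.00, SE 0.42, adjusted p = 0.0227). That call was lost without day 2 replicate 2 or 3 or day 4 replicate 2, with adjusted p from 0.0667 to 0.0797. KRT6B (1.47, adjusted p = 0.0436) lost its call without any 1 of 5 libraries (all but day 4 replicate 3, adjusted p from 0.065 to 0.122). KRT6A did not pass (0.51, adjusted p = 0.0518), and passed with median of ratios scaling (0.0492), without robust moderation (0.0253), on the deposited log2 RPKM (0.0388) and without day 4 replicate 3 (0.69, 0.00156). The 8 keratins gave 3 higher and 0 lower, which became 6 higher without day 4 replicate 3 and 1 without day 2 replicate 2 or 3 or day 4 replicate 2.

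Junction genes rose more often than they fell. Of 29 tested, 18 were higher and 3 lower (median 0.37). CLDN4, for a tight junction claudin, went from 11.1, 10.4 and 9.22 to 30.7, 25.5 and 25.1 CPM (1.39, SE 0.12, limma adjusted p = 2.3e-06, n = 3). DSC2, for desmocollin 2, went from 679, 564 and 513 to 1920, 1700 and 1360 CPM (1.5, SE 0.14), and DSG3, for desmoglein 3, rose by 1.00 (SE 0.11). CDH1, for E-cadherin, was at 546, 539 and 459 and then 672, 627 and 626 CPM (0.32, SE 0.08, adjusted p = 0.00798). With total reads as the scale CDH1 did not pass (0.2, adjusted p = 0.0571), nor did it in a fit of all 12 DMSO libraries (0.39, adjusted p = 0.328). The 3 that fell were EPCAM (-0.62), PKP2 (-0.57) and CLDN1 (-0.36), and EPCAM did not pass in the fit of 12 libraries (-0.56, adjusted p = 0.0701). Among hemidesmosome genes 3 were higher and 2 lower of 12 (median 0.11), near the 18.7% and 18.9% over all genes. With total reads as the scale 2 were higher and 3 lower (median -0.02). KRT18, a simple epithelial keratin, was lower (-0.70) and GATA3, a luminal factor, higher (0.60). PGR, for the progesterone receptor, rose from 0.0659 to 0.139 CPM at day 2 to 1.02 to 2.01 CPM at day 4, a level of a few reads. PGR passed the filter on low reads through its day 4 libraries alone, so it could not have been called lower.

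Mesenchymal genes differed widely in level. VIM, for vimentin, stood at 7.65, 13.1 and 16.7 CPM at day 2 and 5.41, 8.23 and 8.97 CPM at day 4 (-0.68, limma adjusted p = 0.113, n = 3). CDH2, for N-cadherin, was at 2.43, 10.7 and 9.91 and then 1.01, 3.29 and 2.65 CPM (-1.55, adjusted p = 0.173). In both genes day 2 replicate 1 overlaps day 4 and the other day 2 libraries do not. Without that library VIM was lower at -1 (adjusted p = 0.00266) and CDH2 at -2.22 (adjusted p = 0.00371). Of 20 mesenchymal genes 2 were higher and 2 lower, under the 18.7% and 18.9% over all genes. Without day 2 replicate 1 the counts were 3 higher and 7 lower. The 2 higher were MMP2 (mean log2 RPKM 0.59 at day 2 and 1.46 at day 4) and FAP (2.18 and 2.62). The FAP call was lost without day 2 replicate 3 or day 4 replicate 1 (limma adjusted p from 0.0726 to 0.104). It was also lost with total reads as the scale (0.27, adjusted p = 0.0833). LOX had the largest rise of the list (1.27) and did not pass. The lower count was 1 without day 2 replicate 2, day 4 replicate 1 or day 4 replicate 3, and the higher count was 1 without day 2 replicate 3. FN1, for fibronectin, was abundant, at 1530, 2090 and 2510 and then 1370, 1430 and 1220 CPM, and was lower at -0.59 (limma adjusted p = 0.0226), a call lost without day 2 replicate 2 or day 4 replicate 1 or 3 (0.0626 to 0.0833). THY1, a surface glycoprotein, fell by 0.97 (SE 0.13, adjusted p = 5.1e-05). TWIST1 was near 5 CPM at day 2, at 4.66, 5.41 and 4.57, and at 9.05, 5.54 and 7.34 CPM at day 4 (0.54, adjusted p = 0.0381). That call was lost without any 1 of 5 libraries (all but day 4 replicate 2, adjusted p from 0.0526 to 0.163) and with total reads as the scale (0.42, adjusted p = 0.0873). ZEB1 (0.18) and SNAI2 (-0.19) did not pass, and SNAI2 did with total reads as the scale (-0.32, adjusted p = 0.0175).

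The methyltransferase genes that the series targets were lower at day 4, in cells where nothing targeted them. SUV39H1 went from 7.30, 9.49 and 10.1 to 4.28, 3.52 and 4.59 CPM (-1.09, SE 0.18, limma adjusted p = 0.000344, n = 3). SUV39H2 went from 15.3, 15.9 and 14.8 to 6.29, 7.71 and 10.4 CPM (-0.93, SE 0.17, adjusted p = 0.000596). The groups do not overlap in either gene, and both kept their call with each library left out in turn. In HMLE cells with the scrambled duplex SUV39H1 (-0.95, limma adjusted p = 0.00239) and SUV39H2 (-0.39, limma adjusted p = 0.0433) were lower at day 4 as well. The list of H3K9 methylation and heterochromatin held 22 tested genes, and 12 passed as lower against 2 as higher (median -0.26). UHRF1, which couples this mark to DNA methylation, fell by 1.46, the chromatin remodeller HELLS by 0.77, the HP1 beta gene CBX1 by 0.58 and the maintenance methyltransferase DNMT1 by 0.46. EHMT1 (-0.06), EHMT2 (-0.20) and SETDB1 (-0.19), for the other H3K9 methyltransferases, did not pass. Among Polycomb and DNA methylation enzymes 5 of 13 were higher and 2 lower, with TET3 (0.58), TET2 (0.54) and DNMT3A (0.74) among those higher. The 2 lower are under the 18.9% over all genes.

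Genes of ribosome assembly fell. NCL, for the nucleolar protein nucleolin, went from 1080, 1300 and 1140 to 624, 483 and 570 CPM (-1.07, SE 0.10, limma adjusted p = 3.7e-06, n = 3). TCOF1, a factor of ribosomal RNA transcription, went from 140, 156 and 164 to 58.5, 54.3 and 56.3 CPM (-1.44, SE 0.08, adjusted p = 4.9e-08), and NOP56, of the snoRNA particles, fell by 0.90. Of 30 genes of ribosome biogenesis 27 were lower and 0 higher (median -0.64). Ribosomal protein genes themselves gave 8 higher and 0 lower of 76, under the 18.7% of all genes, with a median of 0.08. That count was 3 to 21 with 1 library left out, and with total reads as the scale 1 was higher and 6 lower (median -0.04). It was 3 without day 2 replicate 2, day 4 replicate 1 (with 3 lower) or day 4 replicate 3, 5 without day 2 replicate 3, 17 without day 2 replicate 1 and 21 without day 4 replicate 2. Mitochondrial ribosomal proteins gave 44 lower of 74 and oxidative phosphorylation 40 lower of 74, with 0 higher in both and medians of -0.35. MRPL4 (-0.92) and the ATP synthase subunit gene ATP5J (-0.75) were among them. Proteasome subunits gave 27 lower of 37 (median -0.45), with PSMA3 at -0.90.

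Of 11 fatty acid synthesis genes 10 were lower and 0 higher (median -0.62). FASN, the fatty acid synthase, went from 413, 464 and 549 to 226, 230 and 252 CPM (-1, SE 0.10, limma adjusted p = 4.4e-06, n = 3). Cholesterol genes gave 9 lower and 2 higher of 23 (median -0.23). DHCR7, of the last step of synthesis, fell by 0.90, while the desaturase gene SC5D rose by 0.84. The sterol element TCACNCCAC occurred in 1 of 17 promoters matched for this list (5.88%), against 1.15% of all. Targets of ATF4, the factor of amino acid supply, gave 12 lower and 2 higher of 16 (median -0.66), with the transporter SLC7A5 at -0.77 and SHMT2, of serine use, at -0.74. Aminoacyl-tRNA synthetases gave 9 lower and 0 higher of 12 (median -0.49), LARS at -0.67 among them.

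Genes of glycolysis and hypoxia split, 8 higher and 9 lower of 24 (median -0.03). The enolase gene ENO1 fell from 1110, 1190 and 1120 to 612, 683 and 583 CPM (-0.87, SE 0.08, limma adjusted p = 3.2e-06, n = 3), and PKM, for pyruvate kinase, was at -0.60. VEGFA, a growth factor of blood vessels, rose from 101, 94.3 and 95.2 to 178, 170 and 155 CPM (0.79, SE 0.08), and the collagen hydroxylase P4HA1 was at 0.68. The members with glycolytic roles named here fell and those of the hypoxia response rose. The count of 9 lower was 4 without day 4 replicate 3.

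Of 20 NRF2 and thioredoxin genes 11 were lower and 2 higher (median -0.37), with the quinone reductase NQO1 at -0.91. The mitochondrial chaperone HSPD1 went from 289, 293 and 333 to 142, 144 and 164 CPM (-1.02, SE 0.08, limma adjusted p = 1.1e-06, n = 3). Its list of heat shock chaperones gave 5 lower and 2 higher of 13, and the 2 higher are under the 18.7% over all genes. Endoplasmic reticulum chaperones gave 8 lower and 1 higher of 18, with HSP90B1 at -0.73 and DNAJB9 at 0.81. The metal-binding gene MT2A went from 95.2, 128 and 135 to 28.3, 23.0 and 29.2 CPM (-2.14, SE 0.14, adjusted p = 1.2e-06), and MT1E fell by 1.45, while MT1X (-0.43) and MT1F (0.19) did not pass. MT1X passed with total reads as the scale (-0.55, adjusted p = 0.0445).

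Several signalling lists rose. FOXO genes and targets, which respond to low growth factor signalling, gave 11 higher and 0 lower of 13 (median 0.44). TXNIP, an inhibitor of glucose uptake, went from 241, 190 and 199 to 510, 449 and 434 CPM (1.15, SE 0.10, limma adjusted p = 1.4e-06, n = 3), and SESN3 rose by 1.19. TGF-beta response genes gave 9 higher and 0 lower of 14 (median 0.67), with ID2, an inhibitor of helix-loop-helix factors, at 18.7, 16.6 and 13.9 and then 52.1, 49.7 and 43.5 CPM (1.56, SE 0.12). The feedback genes SKIL (1.45) and SMAD7 (1.23) rose. Whether TGF-beta signalling itself changed, or in which direction it moves ID2 in these cells, was not tested. Immediate early and MAPK feedback genes gave 15 higher and 3 lower of 25 (median 0.53), with 9 higher without day 2 replicate 2 and 8 without day 4 replicate 3. Among EGF receptors and ligands 7 were higher and 2 lower of 12, with ERBB3 at 0.93 and NRG1, one of its ligands, at -1.03.

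Of 38 interferon-stimulated genes 14 were higher and 5 lower (median 0.18), against 18.7% higher and 18.9% lower over all genes. The lower count is thus under the share over all genes. SAMD9L was at 0.83 and IFITM3 at -1.01. The 5 lower were 2 without day 2 replicate 2 or day 4 replicate 1, and 3 without day 2 replicate 3. NF-kB targets and cytokines gave 6 lower and 1 higher of 17, the chemokine gene CXCL3 at -1.02. Autophagy and lysosome genes gave 10 higher and 1 lower of 24 (median 0.20), with the kinase ULK1 at 1.03. Contractile genes of myoepithelial cells gave 5 lower and 0 higher of 8. MYLK, the myosin light chain kinase, had the smallest adjusted p (-1.01, SE 0.11, limma adjusted p = 1.3e-05, n = 3), and ACTG2, a smooth muscle actin, the largest fall (-1.58, adjusted p = 0.0306). The count was 2 or 3, and the ACTG2 call was lost (adjusted p from 0.0577 to 0.117), without any 1 of 5 libraries (all but day 2 replicate 1). Among extracellular proteases and inhibitors 7 were higher and 1 lower of 12, with the protease gene PLAU at 0.80 and TIMP2, an inhibitor, at 0.93.

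**Figure D3:**
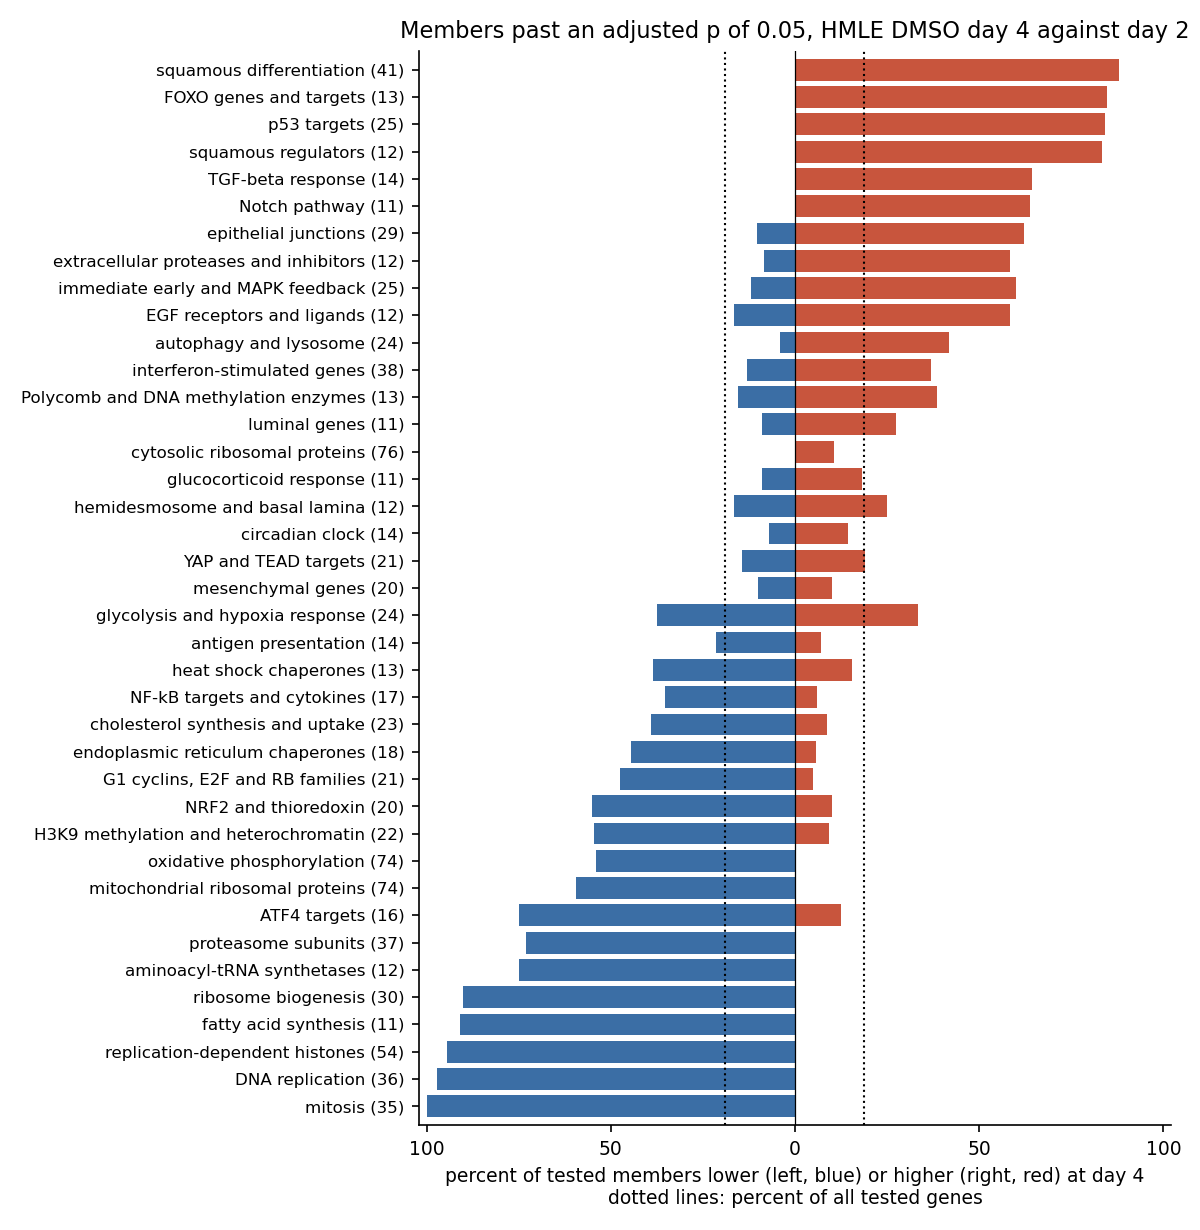
Percent of the tested members of each of 39 gene lists (those with 10 or more, number in parentheses) that were lower (blue, left) or higher (red, right) at day 4 at a limma adjusted p of 0.05. Dotted lines mark 18.7% and 18.9%, the shares over all 16076 genes tested, and mitosis at 35 of 35 lower and squamous differentiation at 36 of 41 higher lie at the ends.

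Outside the lists, the largest rises included GABRP, a subunit of the GABA-A receptor found in mammary epithelium, at 185, 185 and 85.7 and then 992, 683 and 779 CPM (2.50, SE 0.38, limma adjusted p = 0.00834, n = 3). SPTSSB, of sphingolipid synthesis, went from 12, 10.1 and 7.59 to 46.8, 62.5 and 54.4 CPM (2.46, SE 0.16, adjusted p = 8.0e-07). HPGD, which breaks down prostaglandins, went from 10.6, 7.05 and 9.22 to 44.8, 32.0 and 48.5 CPM (2.2, SE 0.18, adjusted p = 5.7e-06). The replicates of the last 2 genes are closer together than those of GABRP. The protease gene CAPN14 rose by 2.81, the keratin gene KRT23 by 2.16, the matrix gene ECM1 by 2.38 and the unnamed transcript AC022596.6 by 2.45. ECM1 lost its call without day 2 replicate 2 (adjusted p = 0.0512), and AC022596.6 without day 2 replicate 3 (0.0564). DSG4, for desmoglein 4, CLCA4, a protein of stratified epithelia, and FABP4, a fatty acid carrier, rose by 3.39, 2.72 and 2.60. DSG4 lost its call without any library but day 2 replicate 3 (adjusted p from 0.0648 to 0.123), and FABP4 without any but day 4 replicate 3 (0.053 to 0.113). CLCA4 lost it without day 2 replicate 2 or any day 4 library (0.068 to 0.0891). FABP4 also marks fat cells: among 7 adipocyte markers that are listed, 5 passed the filter, with 3 higher and 0 lower, and the defining marker PLIN1 was at 0.33 to 1.38 CPM in every library. PPARG went the other way (-0.53) and did not pass, but passed as lower without day 2 replicate 2 (-0.79, limma adjusted p = 0.0488). PLIN4, among those higher, lost its call in the fit of all 12 DMSO libraries (0.91, adjusted p = 0.0755). The summed adipocyte list, mostly FABP4, was 17.6 to 34.4 CPM at day 2 and 66.3 to 159 CPM at day 4.

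Of 9 leukocyte markers listed 4 passed the filter, and 3 were lower and 0 higher (median -1.21): CD14 (-1.24), CORO1A (-1.18) and LCP1 (-1.33). The other tested marker, CSF1R, went the other way (0.77) and did not pass. CSF1R passed as higher without day 2 replicate 1 (limma adjusted p = 0.0451) or day 4 replicate 3 (0.00293). It also passed with a replicate block (0.0144) and in the fit of all 12 DMSO libraries (0.0309). The LCP1 call was lost without day 2 replicate 2 or 3 or day 4 replicate 1 or 2 (limma adjusted p from 0.0535 to 0.0817). The leukocyte list summed to 19.3 to 28.6 CPM at day 2 and 13.6 to 15.9 CPM at day 4. Of 8 endothelial markers 3 passed the filter and 1 was higher, VWF at 0.765, 0.725 and 0.852 and then 2.39, 3.14 and 2.55 CPM (1.59, limma adjusted p = 0.000374, n = 3). Of 4 melanocyte markers 2 passed the filter and 0 passed the test. The part of these markers in other results was not tested.

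Nuclear noncoding RNAs gave 4 higher and 0 lower of 6. MALAT1 went from 56700, 42000 and 45100 to 115000, 80400 and 93100 CPM (1.00, SE 0.15, limma adjusted p = 0.00018, n = 3), and the paraspeckle RNA NEAT1 rose by 0.90. Replicate 1 was the highest for MALAT1 at both days. The part of this rise in the changes of other genes was not tested beyond the scaling by total reads given above.

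The changes were then set beside those of HMLE-TWIST1 cells in DMSO between the same days. There, limma called 29 of 16010 genes higher (0.181%) and 33 lower (0.206%), while 2261 had an unadjusted p below 0.05. MKI67 stood at 1470, 1350 and 1500 CPM at day 2 and 1810, 1350 and 1360 CPM at day 4 in that line (0.05, adjusted p = 0.872). The day 2 levels of both lines are alike in size, and the HMLE day 4 level is the one apart. The test of the difference of the changes between lines, over 12 libraries, called 2028 of 17680 genes higher in HMLE (11.5%) and 1440 lower (8.14%). With total reads as the scale these were 972 and 2848. The difference test took in genes with few or no reads in HMLE-TWIST1. For those the change in that line is held near 0, so the difference largely repeats the change in HMLE. Of the 3001 genes higher and 3036 lower in HMLE, 2467 and 2967 passed the filter on low reads in HMLE-TWIST1. All 35 mitosis genes, 28 of 36 replication genes and 51 of 58 histone genes passed this test as lower. For MKI67 the difference was -2.44 (SE 0.17, adjusted p = 1.2e-06), for SUV39H1 -1.05 (adjusted p = 0.0094) and for SUV39H2 -0.93 (adjusted p = 0.00502).

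For rising genes, 10 of 25 p53 targets and 11 of 14 TGF-beta response genes passed the difference test as higher in HMLE, with 0 lower in each. CDKN1A differed by 1.37 (SE 0.27, limma adjusted p = 0.00461, n = 3 libraries per group), with a change of 0.45 in HMLE-TWIST1 that did not pass (adjusted p = 0.141). In that line 5 squamous genes passed the filter on low reads, against 41 in HMLE, so the squamous list was not compared between lines. ENO1 (-0.84) and NCL (-0.98) also differed. TXNIP, at 1.15 in HMLE and 0.79 in HMLE-TWIST1 (adjusted p = 0.0699 there), gave a difference of 0.42 that did not pass (SE 0.19, adjusted p = 0.148). VEGFA rose in both, by 0.79 and 0.59, and its difference did not pass either (0.27, SE 0.13, adjusted p = 0.186). ATF4 targets gave 2 higher and 2 lower of 18 in the difference test between lines, and aminoacyl-tRNA synthetases 1 and 1 of 12. Their medians in HMLE-TWIST1 were -0.26 and -0.31, with 0 of 18 and 3 of 12 called lower and 0 higher in both.

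HMLE cells with the scrambled duplex gave 3510 of 15848 genes higher at day 4 (22.1%) and 3609 lower (22.8%). Their values fill a part of the deposited table with its own list of genes (19777, against 21700 for the DMSO libraries). Their hours of treatment also differ, so only the changes between days are compared. Of 2964 genes higher in DMSO and tested in both, 1781 were also higher with the duplex, which is 60.1% of the DMSO calls and 53% of the 3358 duplex calls, and 246 were lower. Of 2967 lower in DMSO 1704 were also lower (57.4%, and 47.7% of 3571), and 110 were higher. Across 15378 genes, which are not independent, the changes correlated at r = 0.58. In HMLE-TWIST1 cells 11 of 2467 genes higher in HMLE were also higher (0.446%, and 40.7% of 27), and 10 of 2967 lower ones were also lower (0.337%, and 33.3% of 30).

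Mitosis genes fell with the duplex too, with 31 of 35 lower and a median of -2.21, against -2.14 in DMSO, and 1 of 35 passed the test of the difference. MKI67 went from 433, 400 and 418 to 78.7, 75.2 and 71.7 CPM there (-2.47, SE 0.07, limma adjusted p = 2.0e-14, n = 3), and its difference from DMSO was 0.04 (SE 0.12, adjusted p = 0.857). CDKN1A rose by 1.65 with the duplex and 1.75 in DMSO (difference 0.13, SE 0.24, adjusted p = 0.775). Other p53 targets were less alike: 24 of 25 were higher and 1 lower with the duplex (median 0.93, against 0.64 in DMSO). In the test of the difference 8 of the 25 were lower in DMSO and 1 higher. Histone genes gave 48 lower and 1 higher of 54 with the duplex (median -1.66, against -2.16), and 20 of 55 passed the difference test as lower in DMSO and 1 as higher. The test of the difference between DMSO and duplex called 1788 of 16778 genes higher in DMSO (10.7%) and 952 lower (5.67%).

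Lists of protein synthesis differed in their changes between DMSO and the duplex. Ribosomal protein genes were lower with the duplex (69 of 76, 0 higher, median -0.65) and not in DMSO, and 63 of 76 passed the test of the difference as higher in DMSO, with 0 lower. RPLP0, of the ribosomal stalk, went from 489, 551 and 568 to 313, 276 and 314 CPM with the duplex and from 393, 346 and 349 to 438, 445 and 443 CPM in DMSO (difference 1.15, SE 0.10, limma adjusted p = 7.2e-07). ATF4 targets rose with the duplex (11 of 18, 1 lower, median 1.18), and 13 of 18 passed the difference test as lower in DMSO, with 0 higher. Aminoacyl-tRNA synthetases gave 10 higher and 1 lower of 12 with the duplex, and all 12 passed the difference test as lower in DMSO. Genes of glycolysis and hypoxia gave 21 lower and 1 higher of 24 with the duplex, and 19 passed as higher in DMSO. Squamous genes rose in both, 31 higher and 4 lower of 42 with the duplex (median 0.79), and 16 of 41 passed as higher in DMSO and 2 as lower.

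**Figure D4:**
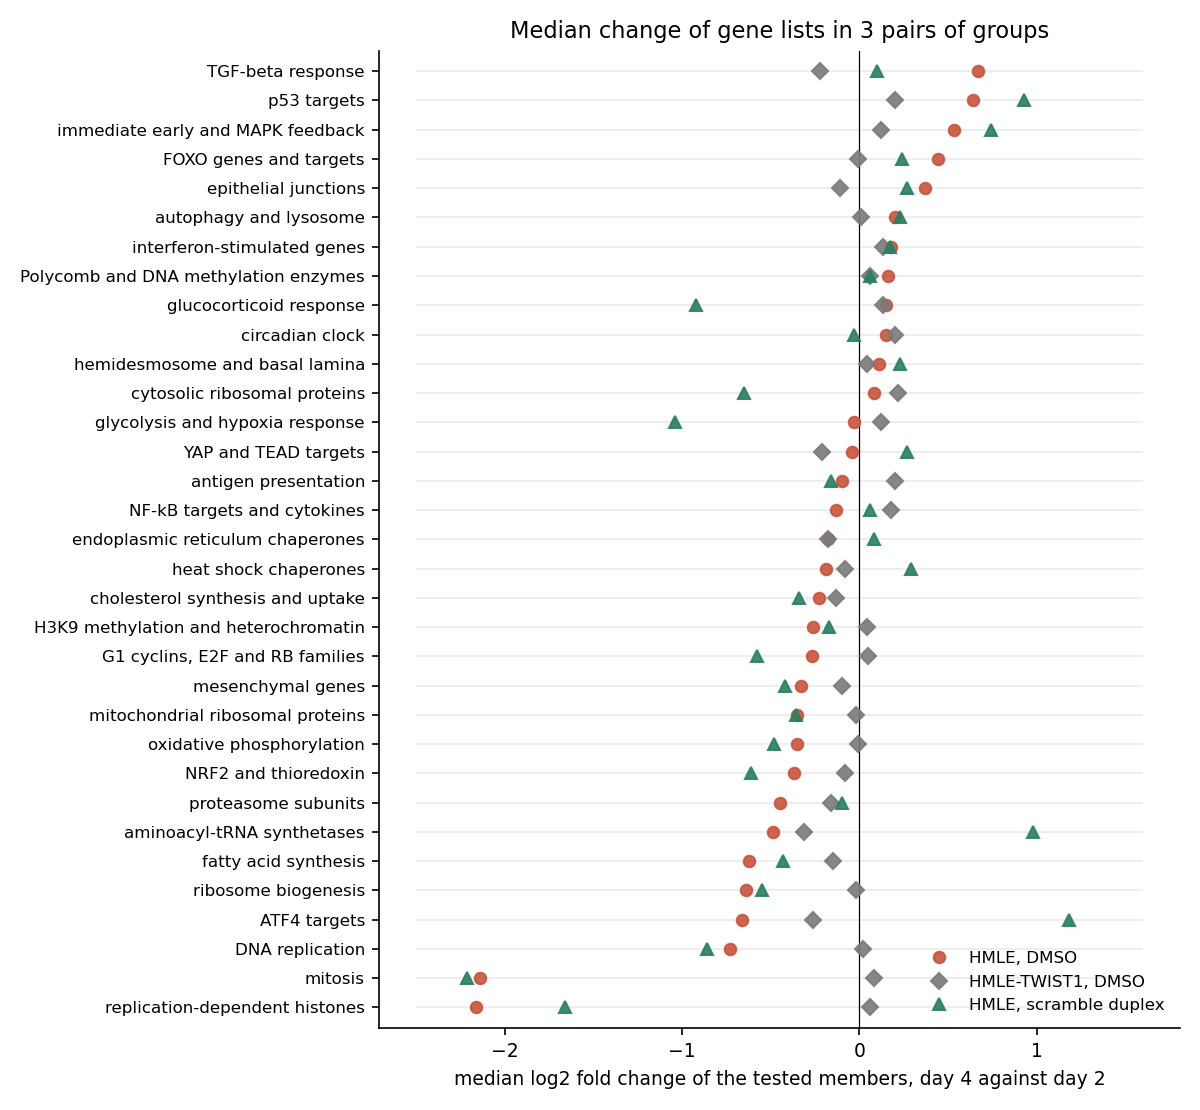
Median log2 fold change between day 4 and day 2 of 33 gene lists with 10 or more tested members in each of 3 pairs of groups: HMLE in DMSO (red circles), HMLE-TWIST1 in DMSO (grey diamonds) and HMLE with the scrambled duplex (green triangles). Mitosis lies at -2.14, 0.08 and -2.21, and ATF4 targets at -0.66, -0.26 and 1.18.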

How the data were processed

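Stranded total RNA libraries, depleted of ribosomal RNA, were sequenced. Reads were handled with STAR and HTSeq on hg19 (GRCh37), per the submitters' processing notes, with versions not given in the sources used here. The authors deposited log2 RPKM values. Their low steps gave whole reads for 100.0% of values (tolerance 0.0001 reads), and those reads were used. A second deposited table of raw counts has 81 columns without sample names and was not used. Genes needed the equivalent of 10 reads in 3 libraries and 15 reads in all. limma 3.58.1 (R 4.3.3, statmod 1.5.0) was fitted with trend and robust moderation to log2 CPM with a prior count of 2, after scaling by a trimmed mean of log ratios (30% and 5% trimmed), which gives the fold changes and SE. p-values were adjusted over all genes by Benjamini-Hochberg at 0.05. The script was tested on simulated data.

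Named genes were the 12 largest rises and 12 largest falls without overlap and with a mean log2 CPM of at least 4, up to 4 members of each of 50 lists with the smallest adjusted p, a short fixed set including TWIST1, SUV39H1, SUV39H2 and the usual transition markers, and the 5 largest each way of each difference test. Members given as exceptions, as ends of a range or as markers were named after their values were seen. The comparison, the members and the lists were chosen with earlier results of these data known. Alternatives covered scaling, filter, prior count, moderation, weights, the deposited scale, the libraries in the fit, a replicate block and each library left out. Some genes are not reported here.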

Additional observations from a re-analysis of the deposited data

Results flagged for a closer look

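The values here are differences of the day 4 against day 2 change on the log2 scale, with limma adjusted p, each from the 5 largest differences each way in a test of the difference itself over 12 libraries. Against HMLE-TWIST1 cells in DMSO, the change in HMLE was higher for the matrix gene ECM1 by 2.26 (adjusted p = 0.00448), the semaphorin gene SEMA5A by 2.24 (adjusted p = 0.00454), the microtubule gene MAP2 by 2.12 (adjusted p = 1.4e-05) and the RNA-binding protein gene CPEB2 by 1.91 (adjusted p = 1.7e-05). CD24P4 differed by 1.91 (adjusted p = 0.00375). It is listed as a pseudogene of CD24, so reads may be split with the parent gene and its value is uncertain. The change was lower in HMLE for HIST1H3B (-3.14, adjusted p = 4.8e-06), HIST1H1B (-3.05, adjusted p = 7.2e-06), HIST1H2BL (-2.97, adjusted p = 3.1e-06), the mitotic kinase AURKB (-2.91, adjusted p = 0.00029) and HIST1H2BO (-2.79, adjusted p = 2.7e-07). The 4 histone genes have near-identical copies.

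Against HMLE cells with the scrambled duplex, the epidermal caspase gene CASP14 differed by 4.90 (adjusted p = 0.00037), with 2.04 in DMSO and -2.83 with the duplex. COLCA1 differed by 3.86 (adjusted p = 0.00205), ZEB2, a repressor of epithelial genes, by 3.37 (adjusted p = 2.4e-06), MAP7D2 by 3.34 (adjusted p = 2.4e-06) and the cornified envelope gene SPRR1A by 3.32 (adjusted p = 0.0156). ZEB2 changed with the duplex (-2.99) and did not pass in DMSO (0.35). In DMSO it passed as higher with a replicate block (0.35, limma adjusted p = 0.00528) and without day 2 replicate 1 (0.57, 0.00492). The same held in a fit of all 15 libraries in the DMSO part of the deposited table (0.42, 0.0358). On the other side, asparagine synthetase ASNS differed by -3.80 (adjusted p = 0.000701), with -1.30 in DMSO and 2.54 with the duplex. PSAT1, of serine synthesis, differed by -2.80 (adjusted p = 0.00275) and the cystine transporter SLC7A11 by -2.66 (adjusted p = 0.00057), and both were likewise below 0 in DMSO and above 0 with the duplex. The collagenase MMP13 differed by -3.04 (adjusted p = 0.00292), with rises of 1.81 and 4.89. The receptor gene NRP2 differed by -2.04 (adjusted p = 1.7e-06).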

How the results depend on the processing

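No named gene called by limma changed sign under any alternative run. With scaling by total reads, the balance of higher and lower members turned for ribosomal proteins (8 and 0 to 1 and 6), hemidesmosome genes (3 and 2 to 2 and 3), EMT factors (2 and 0 to 0 and 1) and YAP targets (4 and 3 to 4 and 5), and 1 squamous regulator and 1 TGF-beta response gene passed as lower. The 3001 genes higher and 3036 lower were 2346 to 2801 and 2376 to 2789 with 1 library left out. The difference between lines, 2028 higher and 1440 lower, became 972 and 2848 with scaling by total reads, and 1594 to 2120 and 1156 to 1448 with 1 library left out. The difference between DMSO and duplex, 1788 and 952, became 1257 to 1736 and 690 to 1243. The lists with 1 library left out ranged over 35 to 35 mitosis genes lower, 32 to 36 replication genes, 50 to 52 histone genes, 25 to 27 ribosome biogenesis genes, 16 to 21 p53 targets higher and 23 to 33 squamous genes higher, and the cause was not tested. A replicate block gave 3220 higher and 3240 lower, 2101 and 1488 between lines, and 1780 and 952 between DMSO and duplex. In the block fit VIM (adjusted p = 0.00126), CDH2 (1.6e-05) and KRT6A (0.000123) passed, and CAPN14 (0.0542) and CLCA4 (0.0848) did not. Same-numbered libraries correlated in their deviations at 0.13, 0.12 and 0.08, each its highest, so the numbers are only a hint of pairing. Low genes are limited by depth: PGR had 4 reads at day 2 in all.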
